A study of Mus musculus with 4 samples.

Results

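Olig1, Olig2, Dlx1, Dlx2, Egfr, Pdgfra, Cspg4, Dcx and Sox11, 9 genes that mark or steer the fate of forebrain progenitors, were followed in mouse neural stem cells with long Nanopore reads of amplified cDNA. They were taken by name, as the table entries whose gene identifier carries 1 of the 9 symbols in GENCODE M21. Of the 9 genes, 6 were found in this way, with 16 isoforms out of 46637 that name a gene, among 14949 genes. Dlx1, Dlx2 and Sox11 had no entry under their gene identifier and were not analysed here as gene counts. The cells were primary neural stem cells grown as neurospheres from embryonic neocortex with bFGF and EGF. Floxed cells received lipid nanoparticles (LNP) for 3 days. The control, Tut1f/f, was given empty LNP and so should have kept its floxed alleles intact. The other 3 were given LNP with mRNA for Cre recombinase and carry the labels Tut1f/f;Cre, then Trp53f/f;Cre, and, with both genes floxed, Tut1f/f;Trp53f/f;Cre. The last pair are called the Trp53-labelled and the double-labelled library, since their Tut1 gene counts, which do not resolve the floxed exon, run against their labels. Tut1 encodes the enzyme that adds uridines to U6 small nuclear RNA, a part of the spliceosome, and Trp53 encodes the p53 protein. Each label has 1 library, so no value below has a replicate check, and a genotype, a culture and a library cannot be told apart. No library of Cre-treated cells without floxed alleles was analysed here.

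In the embryonic forebrain, ventral progenitors use the homeobox factors DLX1 and DLX2 to make inhibitory neurons, and the basic helix-loop-helix factors OLIG1 and OLIG2 to make oligodendrocytes. Cells committed to the oligodendrocyte lineage carry the PDGF receptor PDGFRA and the proteoglycan NG2, the product of Cspg4, and young neurons carry the microtubule-binding protein DCX and the transcription factor SOX11. The EGF receptor is a mitogen receptor of late embryonic and adult progenitors, and its ligand is a standard supplement of neurosphere medium.

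The libraries held between 3936827 and 5125888 reads, of which 2863392 to 4244467 named a gene. Levels are CPM, reads per 1e6 gene-named reads after TMM scaling. Tut1 had 37 reads (9.22 CPM) in the control and 11 (3.66 CPM) in Tut1f/f;Cre. The Trp53-labelled library, where Tut1 should be intact, had 14 (4.10 CPM), and the double-labelled library, where it should be deleted, 27 (9.0 CPM). A gene count does not resolve the floxed exon, so it checks these labels only in part. Trp53 had 175, 67, 10 and 19 reads in the same order, lowest in both libraries labelled Trp53f/f. Xist was read 0, 44, 49 and 0 times and the Y-linked gene Eif2s3y 155, 0, 0 and 60 times, so that the 4 libraries were not matched for sex. The ribosomal RNA gene CT010467.1 took 18.7% of the control's gene-named reads and 9.75%, 8.91% and 5.46% of the others', so that it moved with the Cre mRNA grouping. Leaving it out of the library sizes changed no count of called members between pairs of libraries (0, 1, 0 and 0), and its part in the Cre mRNA test was not tested. Of the marker lists, 9 of 10 neural stem cell genes passed the expression filter, and none of 7 microglial or 5 endothelial genes had an entry. For the astrocyte list 5 of 6 genes had one (Gfap was not analysed here), with a summed level of 514.5 to 668.0 CPM. Of 4 tested, 1 was called lower in each of Tut1f/f;Cre and the Trp53-labelled library and 1 higher in the double-labelled library, where 26.0%, 27.6% and 20% of all genes were called. The lower one was Aldh1l1 (187, 16, 11 and 71 reads, log2 ratios of -3.13, -3.85 and -0.98). The higher one was S100b (10, 16, 10 and 21 reads), at a log2 ratio of 1.49. Between the double-labelled and Trp53-labelled libraries both were called higher, where 7.06% of all genes were called. Both are named here after their values were seen, and their part in the results was not tested. For mesenchyme and pericytes 2 of 8 had an entry, with a summed level of 1.99 to 5.33 CPM. The 1 tested, Acta2 (8, 11, 8 and 16 reads), was called higher in the double-labelled library at a log2 ratio of 1.42, and is also named after its values were seen. Pericytes also carry NG2, and their part in the Cspg4 values was not tested. In such bulk libraries, more cells of a type and more RNA per cell cannot be told apart.

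Olig2 (ENSMUSG00000039830, GRCm38 chr16:91225457-91228677, plus strand), a factor needed for oligodendrocyte specification, was the only member called different from the control by gene-named reads under TMM scaling. With library totals in place of TMM, Cspg4 in Tut1f/f;Cre was called too, at a log2 ratio of 1.04, and with all reads of the gene body Olig2 was no longer called, at 0.67. Olig2 had 998 reads in the control, 1391 in Tut1f/f;Cre, 1953 in the Trp53-labelled library and 1073 in the double-labelled library, which is 248.6, 462.3, 571.5 and 357.7 CPM. The control was lowest and the 95% counting intervals of the 4 libraries did not overlap. Set against the control, the log2 ratio was 0.89 (95% interval 0.78 to 1.01) in Tut1f/f;Cre, 1.20 (1.09 to 1.31, a 2.30-fold higher level) in the Trp53-labelled library, and 0.52 (0.40 to 0.65) in the double-labelled library. Between the double-labelled and Trp53-labelled libraries the log2 ratio was -0.68 (-0.79 to -0.57). These intervals, exact for the ratio of 2 counts, cover counting error only, since amplified reads carry no molecular identifier to separate copies of 1 molecule.

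Olig1 (ENSMUSG00000046160, chr16:91269772-91271933), the partner of Olig2 in oligodendrocyte maturation, starts 41094 bases beyond the end of Olig2. Its reads, 267, 264, 286 and 229 in the same order, hardly varied, and its levels were 66.5, 87.7, 83.7 and 76.3 CPM. The control was again lowest, by a log2 ratio of 0.40 (0.15 to 0.65) in Tut1f/f;Cre, 0.33 (0.09 to 0.58) in the Trp53-labelled library and 0.20 (-0.06 to 0.46) in the double-labelled library. The last interval includes no change, and the 3 Cre-treated libraries had overlapping intervals of their level. Olig1 overlaps a non-coding gene on the other strand, Gm15966, and the sources used here do not state whether counting used strand.

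**Figure D1:**
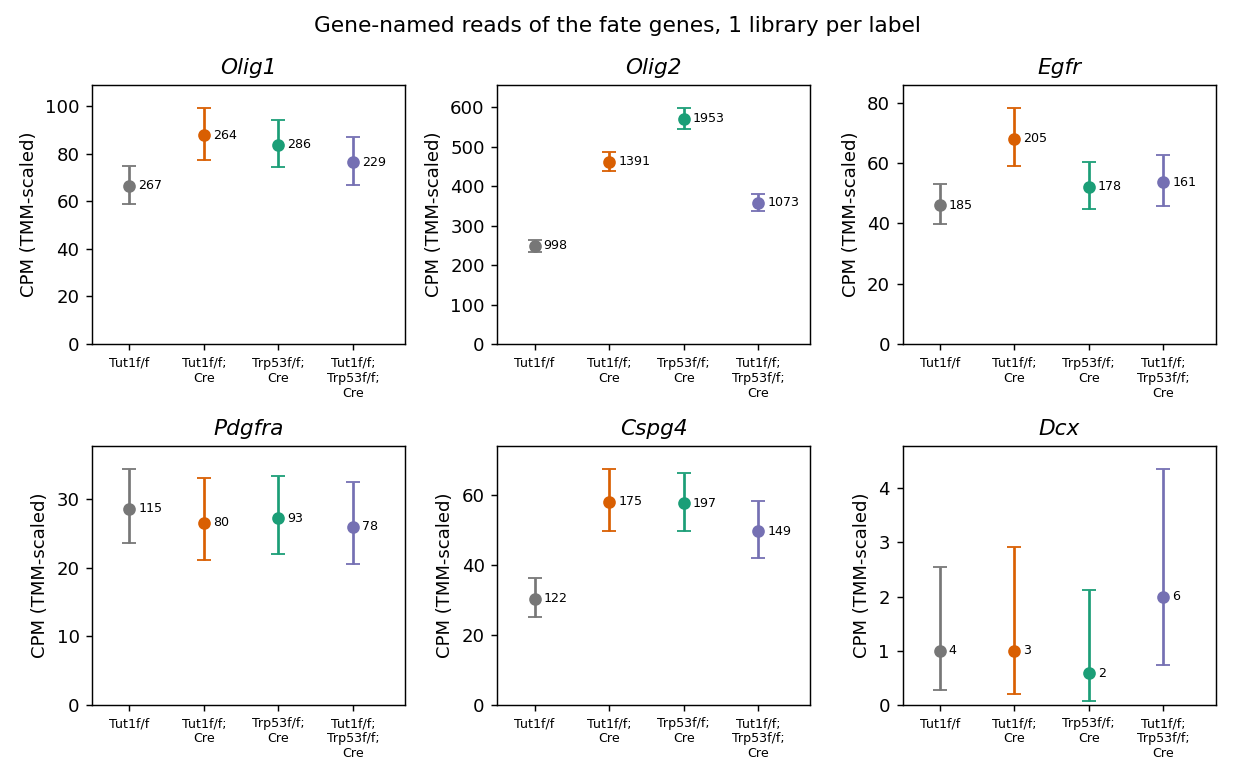
Level of each fate gene with gene-named reads (y axis, CPM, TMM-scaled) in the 4 libraries (x axis); points are single libraries, bars the 95% Poisson interval of the count, and the number beside a point its reads. Olig2 runs from 248.6 CPM in Tut1f/f to 571.5 CPM in Trp53f/f;Cre, Cspg4 from 30.4 to 58.2 CPM, and Pdgfra stays between 26.0 and 28.6 CPM.

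Among the receptors, Pdgfra (ENSMUSG00000029231, chr5:75152292-75198215), the receptor for PDGF-A on oligodendrocyte precursors, was the least variable. It had 115, 80, 93 and 78 reads, or 28.6, 26.6, 27.2 and 26.0 CPM, and all 4 intervals overlapped. Its log2 ratios to the control, -0.11 (-0.54 to 0.32), -0.07 (-0.48 to 0.33) and -0.14 (-0.57 to 0.29), all included no change, and a 1.5-fold difference in either direction lay outside all 3 intervals. Egfr (ENSMUSG00000020122, chr11:16752203-16918158) had 185, 205, 178 and 161 reads, or 46.1, 68.1, 52.1 and 53.7 CPM. It was highest in Tut1f/f;Cre, with a log2 ratio to the control of 0.56 (0.27 to 0.86), while the ratios of the Trp53-labelled and double-labelled libraries, 0.18 (-0.13 to 0.48) and 0.22 (-0.09 to 0.53), included no change. Both receptors overlap annotated genes on the other strand (Egfros for Egfr, Gm42802 and Gm42803 for Pdgfra).

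Cspg4 (ENSMUSG00000032911, chr9:56865033-56899870), which encodes the NG2 proteoglycan, had 122 reads in the control and 175, 197 and 149 in the others. Its level was 30.4 CPM in Tut1f/f, 58.2 CPM in Tut1f/f;Cre, 57.7 CPM in the Trp53-labelled library and 49.7 CPM in the double-labelled library. The control stood apart and the other 3 overlapped. The log2 ratios to the control were 0.94 (0.59 to 1.28), 0.92 (0.59 to 1.26) and 0.71 (0.35 to 1.07), or 1.91-fold, 1.90-fold and 1.63-fold. Between the double-labelled and Trp53-labelled libraries the ratio, -0.22 (-0.53 to 0.10), included no change. Of these 2 membrane proteins, commonly used together to mark oligodendrocyte precursors, Cspg4 was thus higher by gene-named reads in every Cre-treated library, and Pdgfra differed from the control in none by more than counting error.

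Dcx (ENSMUSG00000031285, chrX:143855842-143933311), the marker of migrating young neurons, was close to the limit of detection. It had 4, 3, 2 and 6 reads, or 1.0, 1.0, 0.585 and 2.0 CPM, did not pass the expression filter and was not tested. Its log2 ratios to the control had intervals as wide as -4.23 to 2.04, so that no difference was detectable from its gene-named reads. The interneuron factors Dlx1 (chr2:71528113-71533981) and Dlx2 (chr2:71543408-71546754, 9426 bases away) carried neither a gene-named entry nor a position-named one and were not analysed here.

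A difference between 2 libraries was called when the ratio was at least 2-fold and its interval excluded no change. Between Tut1f/f;Cre and Tut1f/f, 0 of the 5 members that passed the filter were called, and 26.0% of all 9882 genes tested were. Between the Trp53-labelled library and Tut1f/f, 1 of 5 was called, Olig2, where 27.6% of all genes were called and 13.2% were called higher. For the double-labelled library the count was 0 of 5 against the control (20% of all genes) and 0 of 5 against the Trp53-labelled library (7.06%). No member was called in the same direction in all 3 comparisons with the control, as 13.0% of all genes were. Of the 5, Olig1, Olig2, Egfr and Cspg4 had a higher CPM in all 3 Cre-treated libraries than in the control, where 37.3% of all genes did. The 3 comparisons share that 1 control library.

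**Figure D2:**
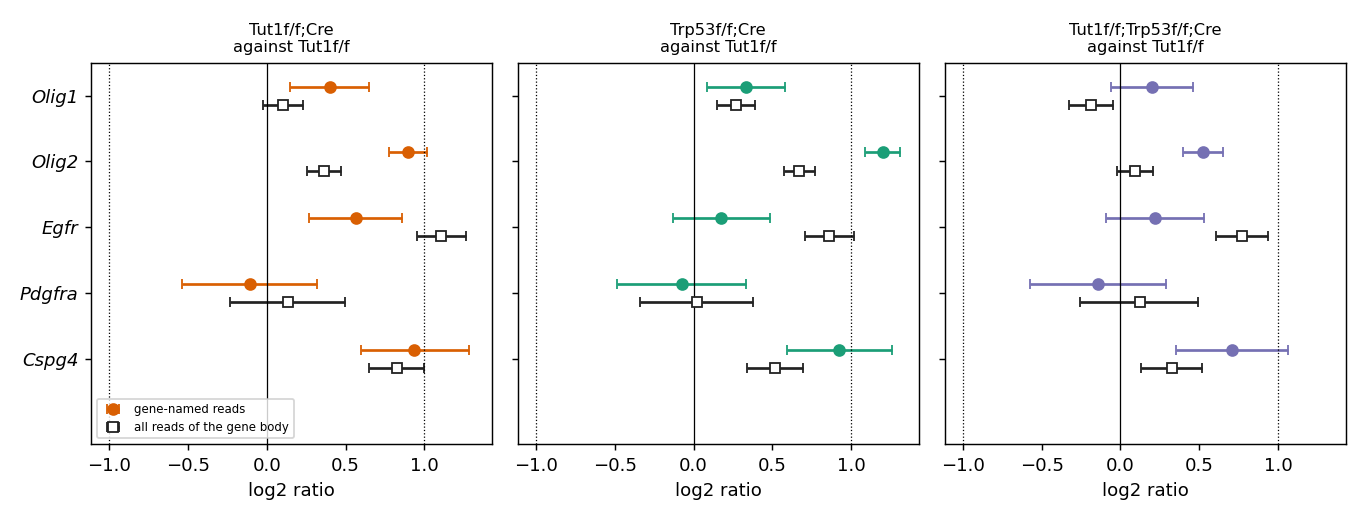
Log2 ratio to Tut1f/f (x axis) of 5 fate genes in the 3 Cre-treated libraries, from gene-named reads in CPM (filled circles) and from all reads of the gene body per 1e6 reads of the library (open squares); bars are exact 95% counting intervals and dotted lines mark 2-fold. Adding position-named reads moves Olig2 toward 0 (from 1.20 to 0.67 in Trp53f/f;Cre) and Egfr away from it (from 0.56 to 1.11 in Tut1f/f;Cre).

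Across libraries, gene counts were tested with edgeR's quasi-likelihood test at a Benjamini-Hochberg FDR under 0.05 and at least 2-fold. For Tut1 status, with Trp53 status in the model, no member was called and none had an unadjusted p under 0.05. The estimates lay between -0.09 (SE 0.564, Pdgfra) and 0.36 (SE 0.535, Cspg4) on the log2 scale. Over all genes edgeR called 0 (0.0%) and had 171 at an unadjusted p under 0.05, while DESeq2 called 0 and had 70. For Trp53 status no member was called either. Olig2 had the largest estimate, 0.42 (SE 0.436, edgeR FDR 0.9998), and 1 gene in all was called (0.0101%). This model leaves 1 residual degree of freedom, and the Tut1 counts above go against 2 of its labels. That 1 degree sets the control and double-labelled libraries, without Xist reads, against Tut1f/f;Cre and the Trp53-labelled library, with 44 and 49. Its error estimate thus carries any difference by sex, and the lack of calls cannot be read as lack of an effect.

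Grouped by Cre mRNA, 3 libraries against 1, Olig2 had a log2 fold change of 0.90 (SE 0.258, edgeR FDR 0.0263) and Cspg4 of 0.86 (SE 0.274, edgeR FDR 0.0415), both under the 2-fold threshold and both higher in 3 of 3 Cre-treated libraries. Egfr (0.33, edgeR FDR 0.410), Olig1 (0.31, edgeR FDR 0.383) and Pdgfra (-0.11, edgeR FDR 0.821) did not pass. No member was therefore called, where 17.0% of all genes were (831 higher and 845 lower, or 981 and 649 when scaled to library totals). The control has 1 library, assumed to vary like the others, and Cre mRNA cannot be told apart from that library. Without the Trp53-labelled library the edgeR FDR was 0.163 for Olig2 and 0.156 for Cspg4. Without Tut1f/f;Cre the log2 fold change was 0.89 for Olig2 and 0.81 for Cspg4, the latter no longer passing the FDR. Without the double-labelled library it was 1.05 for Olig2, then past 2-fold, and 0.92 for Cspg4. In that last fit the Cre-treated libraries left both had Xist reads (44 and 49) and the control had none. Sex and Cre mRNA cannot be told apart there. With no library left out, the DESeq2 FDR was 0.0282 for Olig2 and 0.0944 for Cspg4.

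Isoforms were compared as the share of a gene's named reads. Olig1 and Olig2 each rested on 1 annotated transcript, apart from a single read of Olig2. Cspg4 rested on 1 isoform named by a read (121, 174, 197 and 149 reads), apart from 1 read each in Tut1f/f and Tut1f/f;Cre. Dcx rested on 1 variant of an annotated transcript. Most Egfr and Pdgfra reads fell to a full-length transcript, or a variant of it, and to a short one that ends early and lacks the kinase-coding exons or part of them. Pdgfra also had 2 isoforms named by a read, with 15, 3, 5 and 5 reads and with 9, 4, 3 and 2 reads, which in the control together outnumbered the short form. The coding ends are shown because each short form has last codons of its own, which set it apart from the full-length form. Given are the last 30 coding bases of each (GENCODE M21, GRCm38, plus strand), with the stop codon in capitals.
Egfr full-length, ENSMUST00000020329, chr11:16752211-16918158: cctccaagcagtgagtttattggagcaTGA
Egfr short, ENSMUST00000102884, chr11:16752203-16887923: cagtggatcttaaagaccttttggatcTAA
Pdgfra full-length, ENSMUST00000000476, chr5:75152306-75198215: tcggacctggtggaggacagcttcctgTAA
Pdgfra short, ENSMUST00000202681, chr5:75152292-75183517: tctggcaaatatgatctttctgtggttTAA
The Egfr coding sequence runs over 1210 codons in the full-length form and 655 in the short one, with the first 1926 bases shared and 42 bases of its own at the end of the short form. For Pdgfra the lengths are 1089 and 790 codons, with 2323 bases shared and 50 of its own.

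The short Egfr form took 27 of 185 reads in the control (14.6%, Wilson 95% interval 10.2 to 20.4), 27 of 205 in Tut1f/f;Cre (13.2%, 9.21 to 18.5), 14 of 178 in the Trp53-labelled library (7.87%, 4.74 to 12.8) and 28 of 161 in the double-labelled library (17.4%, 12.3 to 24.0). All 4 intervals overlapped, the lowest and the highest only just. Its widest gap, 9.53 percentage points between the double-labelled and Trp53-labelled libraries, had an FDR of 0.163 in Fisher's exact test over all isoforms. The remaining Egfr reads were nearly all of a variant of the full-length transcript (155, 178, 164 and 133 reads). The short Pdgfra form took 22 of 115, 19 of 80, 26 of 93 and 24 of 78 reads, a share of 19.1%, 23.8%, 28.0% and 30.8%, and all 4 intervals overlapped. Its gap of 11.6 points between the double-labelled library and the control had an FDR of 0.318 in the same exact test.

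**Figure D3:**
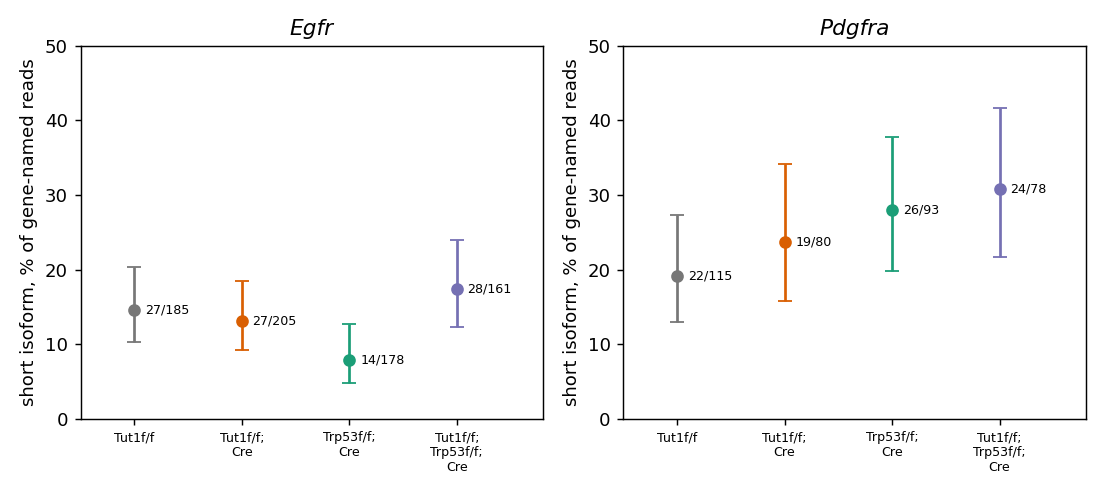
Share of gene-named reads held by the short isoform (y axis, percent) of Egfr and Pdgfra in the 4 libraries; bars are Wilson 95% intervals and the numbers give short over all reads. For Egfr the share lies between 7.87% and 17.4%, for Pdgfra between 19.1% and 30.8%, and no pair passed the usage test.

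Of 27 tests on member isoforms over the 4 pairs of libraries, 0 passed an FDR under 0.05 with at least 10 percentage points, and 5 had an unadjusted p under 0.05 in Fisher's exact test. Over all isoforms tested, 8.66% passed between Tut1f/f;Cre and Tut1f/f, 9.12% between the Trp53-labelled library and Tut1f/f, 6.49% between the double-labelled library and Tut1f/f, and 1.24% between the 2 Trp53f/f libraries. These tests compare libraries, not conditions.

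Many entries of the table, 208527 of 255164, name a chromosome position in steps of 1000 bases in place of a gene, and held 17.2% of the control's reads and 27.3% to 30.2% of the others'. Those falling within a gene were counted here for the members, with the reservation that their strand, and which end of the isoform the position marks, are not stated in the sources used here. Sox11 (ENSMUSG00000063632, chr12:27334264-27342574, minus strand), a single-exon gene, was seen only in this way. It had 403 reads in the control, 591 in Tut1f/f;Cre, 857 in the Trp53-labelled library and 488 in the double-labelled library. Per 1e6 position-named reads these were 457.2, 460.0, 613.2 and 454.6. On that scale the log2 ratios to the control were 0.01 (-0.18 to 0.20), 0.42 (0.25 to 0.60) and -0.01 (-0.20 to 0.19), where the median gene body had 0.37, 0.33 and 0.42. Per 1e6 reads of the library Sox11 had ratios of 0.82 (0.64 to 1.01), 1.17 (1.0 to 1.35) and 0.66 (0.46 to 0.85), so that the size of its difference depends on the scale. Dcx had 26, 62, 41 and 31 such reads, most of them at the step at its end.

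Olig2 differed in the opposite direction in these entries. Position-named reads in Olig2 numbered 395 in Tut1f/f and 96, 135 and 68 in the others, all but 16, 21, 23 and 15 of them at 1 step about 3.04 kb from its start, near the gene's end. The control was far above the rest. Per 1e6 position-named reads the log2 ratios to the control were -2.58 (-2.92 to -2.26), -2.21 (-2.51 to -1.93) and -2.82 (-3.22 to -2.45), and 5.74%, 5.04% and 5.67% of all gene bodies were called lower in those comparisons. They made up 28.4% of the reads in Olig2 in the control and 6.46%, 6.47% and 5.96% in the others. Olig1 had 799, 687, 923 and 491 such reads at a single step, between 68.2% and 76.3% of its reads, with log2 ratios on the same scale of -0.76 (-0.91 to -0.61), -0.46 (-0.60 to -0.32) and -0.99 (-1.15 to -0.82). Per 1e6 gene-named reads the Olig1 ratios were 0.20 (0.05 to 0.35), 0.44 (0.30 to 0.58) and -0.28 (-0.45 to -0.12), so that its direction depends on the scale in Tut1f/f;Cre and the Trp53-labelled library. Those of Olig2 were negative on both scales, at -1.63, -1.32 and -2.12 per 1e6 gene-named reads.

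**Figure D4:**
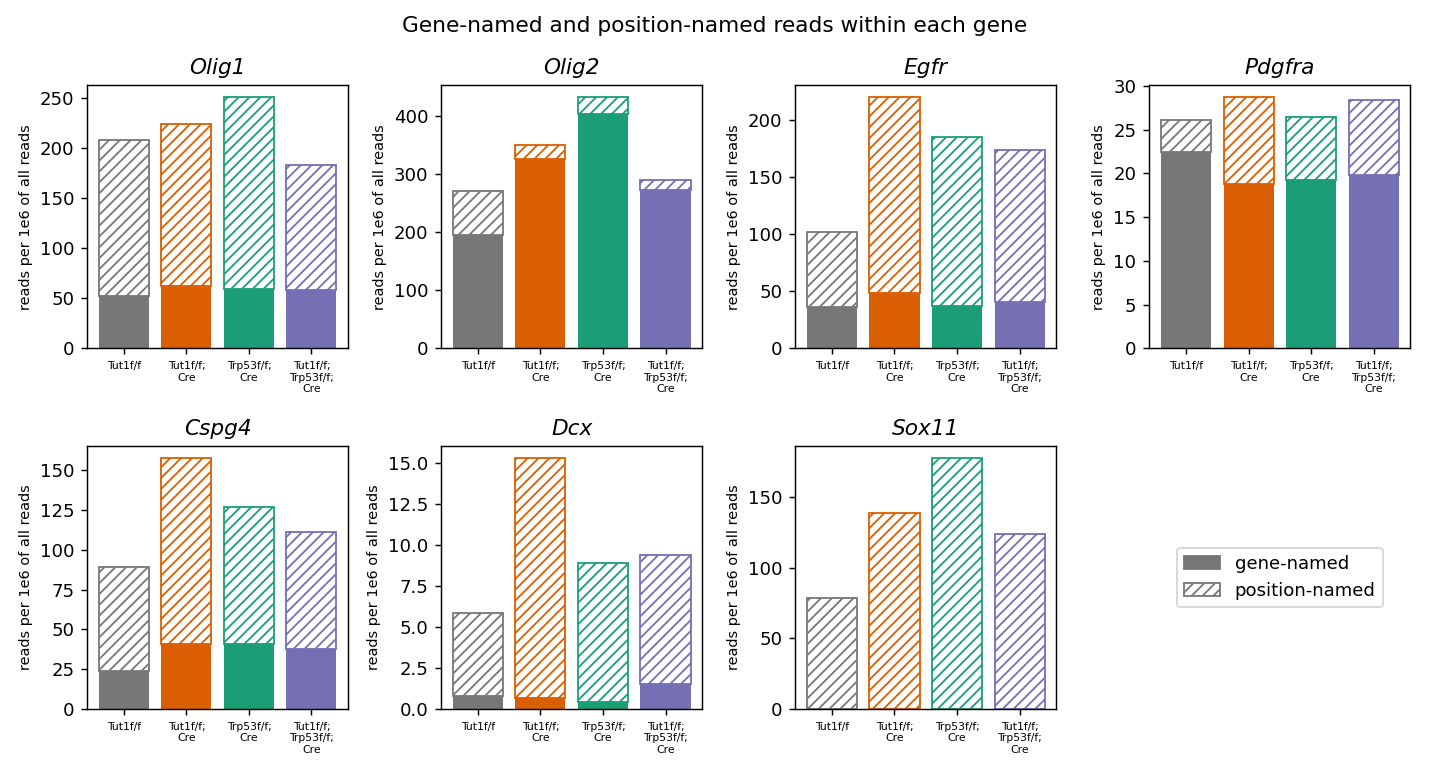
Gene-named (filled) and position-named (hatched) reads within 7 fate genes, stacked, per 1e6 reads of the library (y axis), in the 4 libraries. The hatched part of Olig2 is 28.4% of the bar in Tut1f/f and 5.96% to 6.47% in the others, and Sox11 has only position-named reads.

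With both kinds of reads together, per 1e6 reads of the library, Olig2 stood at 271.8 in the control, 349.6 in Tut1f/f;Cre, 432.3 in the Trp53-labelled library and 289.8 in the double-labelled library. The log2 ratios to the control became 0.36 (0.26 to 0.47), 0.67 (0.57 to 0.77) and 0.09 (-0.02 to 0.21), beside a median of all gene bodies of 0.27, 0.27 and 0.27 on this scale. Olig2 lay above the median gene by more than counting error in the Trp53-labelled library and below it in the double-labelled one, while its interval in Tut1f/f;Cre included the median. For Olig1 the same ratios were 0.10 (-0.02 to 0.23), 0.27 (0.15 to 0.39) and -0.19 (-0.32 to -0.05), equal to the median gene in the Trp53-labelled library and below it in the other 2. Cspg4 stood at 89.0, 157.5, 127.1 and 111.5, with ratios of 0.82 (0.65 to 1.0), 0.51 (0.34 to 0.69) and 0.33 (0.13 to 0.52), of which the last interval included the median and the other 2 lay above it. The Pdgfra ratios, 0.13, 0.02 and 0.12, again included no change.

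The Egfr ratios were larger on this count than by gene-named reads. All its reads together stood at 101.8 in the control, 219.3 in Tut1f/f;Cre, 185.1 in the Trp53-labelled library and 173.7 in the double-labelled library, and the control did not overlap the others. The log2 ratios were 1.11 (0.95 to 1.26), 0.86 (0.70 to 1.02) and 0.77 (0.60 to 0.94). On this count Egfr was called in Tut1f/f;Cre against Tut1f/f (28.6% of all gene bodies were), Olig2 was no longer called in the Trp53-labelled library (28.2%), and of the 5 members none was called in the double-labelled library against the control (23.6%) or against the Trp53-labelled library (3.66%). Outside the 5, Sox11, with position-named reads alone, was past 2-fold in the Trp53-labelled library at a log2 ratio of 1.17 (1.0 to 1.35), and Dcx, from 30 and 65 reads, in Tut1f/f;Cre at 1.39 (0.74 to 2.06). Per 1e6 position-named reads, the position-named Dcx reads there had a ratio of 0.71 (0.03 to 1.43), not called, beside a median gene body of 0.37.

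The extra Egfr reads lay mostly at steps that contain none of its annotated exons. Of its 60 steps with an entry, 46 had no exon and together held 106 reads in the control, 419 in Tut1f/f;Cre, 433 in the Trp53-labelled library and 308 in the double-labelled library. They were 31.5% of the position-named Egfr reads in the control and 57.6%, 60.5% and 58.9% in the others. Per 1e6 position-named reads the log2 ratios to the control were 1.44 (1.13 to 1.76), 1.37 (1.06 to 1.69) and 1.25 (0.93 to 1.59), where the median of 5566 genes with such reads was 0.86, 0.78 and 0.89. Egfr was called higher in all 3, as were 38.3%, 33.5% and 38.2% of those genes. Egfr reads at the 14 steps with an exon, 231, 309, 283 and 215, had ratios of -0.12 (-0.37 to 0.13), -0.37 (-0.63 to -0.12) and -0.39 (-0.66 to -0.11).

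Cspg4 also differed between the kinds of step. Its 6 steps without an exon held 5, 32, 31 and 22 reads, and the log2 ratios to the control were 2.13 (0.76 to 3.85), 1.97 (0.59 to 3.69) and 1.85 (0.42 to 3.61). Each interval included the median gene, at 0.86, 0.78 and 0.89. Cspg4 was called higher each time, as were 38.3%, 33.5% and 38.2% of all genes with such reads. At its 9 steps with an exon it had 329, 463, 386 and 268 reads, mostly at the step nearest the gene's end, with ratios of -0.05 (-0.26 to 0.16), -0.43 (-0.65 to -0.22) and -0.58 (-0.82 to -0.34). Over all its position-named reads, per 1e6 of such reads, Cspg4 had ratios of 0.02 (-0.18 to 0.23), -0.34 (-0.56 to -0.13) and -0.49 (-0.72 to -0.26). Per 1e6 gene-named reads these were 0.98 (0.78 to 1.19), 0.55 (0.34 to 0.76) and 0.22 (-0.02 to 0.45). By gene-named reads Cspg4 was thus higher in every Cre-treated library, while the direction of its position-named reads depends on the scale. Pdgfra had 0, 4, 5 and 4 reads and Dcx 0, 9, 3 and 1 at steps without an exon. Olig1, Olig2 and Sox11 had no such step.

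**Figure D5:**
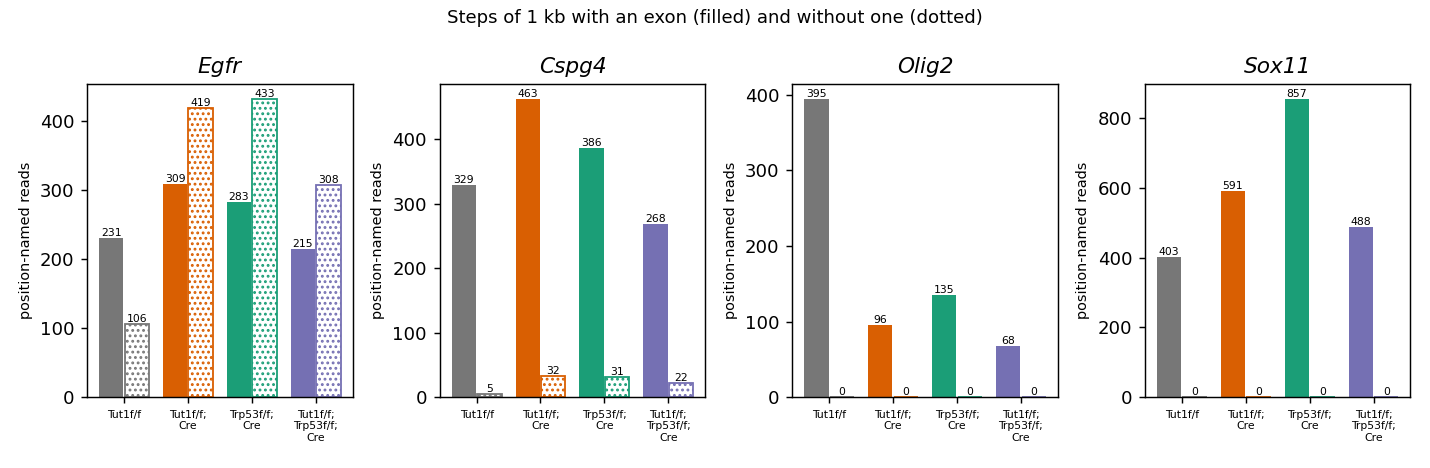
Position-named reads (y axis, reads) of Egfr, Cspg4, Olig2 and Sox11 at 1-kb steps that contain an annotated exon of the gene (filled bars) and at steps that contain none (dotted bars), in the 4 libraries. Egfr reads without an exon go from 106 in Tut1f/f to between 308 and 433 in the others, and Olig2 reads number 395 in Tut1f/f and between 68 and 135 in the others.

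The genes that act with the members were followed as lists of related genes. Of 19 further oligodendrocyte-lineage genes, 14 had an entry and 11 were tested. Against the control, 2 were called higher and 2 lower in Tut1f/f;Cre, 1 and 3 in the Trp53-labelled library, and 1 and 3 in the double-labelled library, with median log2 ratios of 0.36, 0.06 and -0.32 beside 0.02, 0.02 and -0.02 over all genes. Cnp, an enzyme of myelinating cells, was called lower in all 3, with 319 reads in the control and 31, 22 and 28 in the others. Sox8, a factor of the lineage, was called lower likewise, with 93, 10, 13 and 19 reads. Tcf7l2, a factor of maturing oligodendrocytes, was called higher in all 3, with 146, 300, 369 and 283 reads. The lineage list thus held calls in both directions.

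For receptors and signalling in the EGF and PDGF pathway, 20 of 29 genes had an entry and 13 were tested. Of these, 1 was called higher and 3 lower in Tut1f/f;Cre, 1 and 4 in the Trp53-labelled library, and 1 and 2 in the double-labelled library, with medians of -0.06, -0.15 and -0.11. Called in all 3 were the ETS factors Etv4 (72 reads in the control against 8, 13 and 8) and Etv5 (176 against 49, 42 and 65), both lower, and the exchange factor Sos1 (30 against 85, 128 and 81), higher. Of 17 ventral progenitor and interneuron genes, 6 had an entry and 4 were tested. One was called higher in each of Tut1f/f;Cre and the Trp53-labelled library and 1 lower in the third comparison, in each case Six3 (8, 23, 18 and 0 reads), named here after its values were seen. Of 26 dorsal neurogenic and neuronal genes, 13 had an entry and 11 were tested, and 2 were called higher and none lower in each comparison. These were Map1b, a microtubule-associated protein of growing axons (44, 96, 99 and 91 reads), and Emx2, a dorsal progenitor factor (33, 54, 79 and 54 reads). The counts of called genes in these lists stand beside the 26.0%, 27.6% and 20% of all genes called in the same comparisons, and with so few genes per list they are descriptions. Between the double-labelled and Trp53-labelled libraries, the lists of the lineage, of ventral genes and of dorsal genes each had 1 gene called lower and none higher, and that of the pathway none, where 7.06% of all genes were called.

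Of 9 markers of the neural stem cells themselves that were tested, 4 were called higher and none lower in Tut1f/f;Cre, 3 and none in the Trp53-labelled library, and 1 and 1 in the double-labelled library, with median log2 ratios of 0.86, 0.91 and 0.34, where 26.0%, 27.6% and 20% of all genes were called. Hes1, a Notch target that keeps progenitors undifferentiated, was called higher in all 3, with 594, 1513, 1586 and 1334 reads. Nes, Sox9, Vim and Fabp7 are named here after their values were seen. Nes, the intermediate filament of neural stem cells (555, 926, 1007 and 588 reads), and Sox9, a progenitor and glial factor (147, 262, 313 and 199 reads), were called higher in Tut1f/f;Cre and the Trp53-labelled library but not in the double-labelled one. Vim, a filament shared with many cell types, had 5030, 2296, 2158 and 1836 reads, with log2 ratios of -0.72, -0.99 and -1.03, and was called lower only in the double-labelled library. Fabp7, a radial glial lipid carrier, had log2 ratios of 0.02, -0.04 and 0.19. The part of such markers in the values of the members was not tested.

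The genes whose pattern over the 4 libraries lay closest to each member, by Euclidean distance between centred log2(CPM + 0.5) values, were found among 6688 genes of at least 10 CPM on average over the libraries. For Olig2 they included Aebp1 (distance 0.0265) and Ddx3x (0.0431), with Aebp1 at 20.2, 38.5, 47.7 and 30 CPM. For Cspg4 they were Rbm25 (0.0167), Ep300 (0.0207) and Cntrl (0.0334). Olig1 was closest to Ikbip, Chuk and Actr2, Egfr to Dclk2, Tmem136 and Rab23, and Pdgfra to Rab14, Ccdc12 and Gsto1. With 4 libraries such nearness describes the libraries and says nothing of shared function.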

How the data were processed

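The authors deposited 1 table of isoforms with whole-number read counts for 4 libraries, not normalized, from Nanopore cDNA-PCR libraries. The submitters' processing notes name mm10. The methods give minimap2 and FLAIR for long reads of dissected pallium, while the tool and filters for this table are not given in the sources used here. Counts of entries naming an Ensembl gene were summed per gene, with symbols and positions (1-based) from GENCODE M21. Position-named entries stayed out of the gene counts, CPM and edgeR, DESeq2 and isoform tests, and were compared only where the text says so, per 1e6 position-named reads, gene-named reads or reads of the library. They were assigned to a gene when their 1-kb step overlapped it. The default edgeR filter left 9882 genes. R 4.3.3, edgeR 4.0.16 (TMM), DESeq2 1.42.0 and scipy 1.17.1 were used, and each SE was taken as log2 change divided by the root of its F value. Isoform usage was tested for isoforms with at least 10 reads over both libraries in genes with at least 20 in each. Scripts were tested on simulated data. All members were named. From the lists, genes called alike in all 3 comparisons with Tut1f/f were named, at most 6 per list, and for likeness the 3 nearest genes, of which 1 is not reported here. Members and lists were chosen with earlier results of these data known. Alternatives were other scalings, filters, fold thresholds, annotated transcripts only, no ribosomal RNA gene, DESeq2 and leaving out a library, and, chosen after seeing the data, all reads of the gene body.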

Additional observations from a re-analysis of the deposited data

Results flagged for a closer look

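Olig2 differed in direction between the 2 comparisons that carry the Tut1 label. Its log2 ratio was 0.89 between Tut1f/f;Cre and Tut1f/f and -0.68 between the double-labelled and Trp53-labelled libraries, a difference of -1.57. Each side is 1 library against 1, and the first comparison also differs in Cre mRNA. The Tut1 counts of the last pair go against their labels. With the library of fewer Tut1 reads set over the other, that pair would have a positive ratio, the same sign as the first comparison. Xist was read in Tut1f/f;Cre and the Trp53-labelled library (44 and 49 reads) and not in the other 2, so sex turns in the same pattern and cannot be told apart from it. The difference was not tested.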

How the results depend on the processing

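Of 51 counts of called members under alternatives, 39 equalled the reported count. For Tut1f/f;Cre against Tut1f/f (0 reported) library totals gave 1, a 1.5-fold threshold 2, and all reads of the gene body 1. For the Trp53-labelled library against Tut1f/f (1 reported) the 1.5-fold threshold gave 2, and both the 4-fold threshold and all reads of the gene body gave 0. For the double-labelled library the 1.5-fold threshold gave 1 against the control and 1 against the Trp53-labelled library, and annotated transcripts alone gave 1 in the latter. That is Egfr, at a log2 ratio of 1.19, since this setting leaves out the full-length variant. For Cre mRNA (0 reported) no fold threshold gave 2, library totals 1, and leaving out a library 0 to 1. Of 88 member log2 ratios under alternatives 14 left the counting interval. The 1 called ratio kept its sign. That of Egfr in the Trp53-labelled library against the control, not called, went from 0.18 to -0.75 with annotated transcripts alone. With all reads of the gene body, Olig1 in the double-labelled library went from 0.20 to -0.19 and Dcx in the Trp53-labelled library from -0.77 to 0.61. The Pdgfra ratios then changed sign in every comparison with the control. None of these was called. Over all genes the edgeR count for Cre mRNA, 1676, became 980 with DESeq2 and 0 without the Trp53-labelled library. Library totals moved the median gene of the double-labelled library against the control from -0.02 to 0.13 (log2). The causes were not tested. No paired analysis was possible because each label has 1 library. Depth limits Dcx most, at 2 to 6 gene-named reads, and counting intervals leave out variation between cultures.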
